A study of Mus musculus with 12 samples.

Results

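Aminoacyl-tRNA synthetases join each amino acid to its transfer RNA. The 36 genes described here encode 20 cytosolic synthetases or synthetase subunits and 16 mitochondrial enzymes. They were chosen by symbol, the mitochondrial ones being those whose symbol ends in 2, and each symbol had 1 row among the 32544 rows of the deposited table. All 36 passed the filter on low counts, the least abundant (Nars2 and Mars2 among them) having an average of at least 2.57 on the log2 scale of CPM (counts of a gene scaled to library size). The study measured poly(A)-selected RNA of 3T3 cells, an established mouse fibroblast line, in 4 groups of 3 libraries. One group received no vesicles. Exposure of the remaining groups to extracellular vesicles (EVs), small membrane-bound particles shed by cells, lasted 24 h. These vesicles came from the human breast cancer line MDA-MB-468. The donors were control cells (shCon), cells with knockdown of the surface protein CRIPTO (shCr) or cells that overexpressed CRIPTO (CrOE). Every treated group thus shares human vesicles as the agent, and no group received vesicles from other donors. Table columns that carry only the name Cripto were taken as the CrOE libraries because the knockdown libraries have columns of their own. The labels do not say that replicates were separate cultures, so p-values measure the spread between these libraries only.

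Most amino acids have a cytosolic and a mitochondrial synthetase, both encoded in the nucleus. Gars and Kars are exceptions, since each gene makes both forms, and Eprs is one protein that charges both glutamate and proline. Cytosolic enzymes feed the bulk of protein synthesis, whereas mitochondrial ones serve the few proteins encoded by the organelle's own genome. Many cytosolic synthetase genes are known targets of ATF4, the transcription factor of the integrated stress response, which is induced when cells run short of amino acids or fold proteins poorly. The factor binds C/EBP-ATF response elements near the start of its targets. In fibroblasts, as in other cells, this response raises synthetases together with amino acid transporters and enzymes of amino acid synthesis.

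Library totals ranged from 25960054 to 37774020 estimated counts. The CrOE EV libraries stood apart from the others: 73.7% of the 14279 genes tested were called against untreated cells, compared with 38.1% after shCon EVs and 37.3% after shCr EVs. The fibroblast label was checked with 10 markers, all of which were detected in untreated cells. Their summed level was 16180 to 17120 CPM in untreated libraries. It was 19560 to 19750 CPM with shCon EVs, 13750 to 15570 CPM with shCr EVs and 4935 to 5141 CPM with CrOE EVs. Of the 10 markers, 3 rose and 3 fell by call with shCon EVs (18.0% and 20.2% of all genes tested). With shCr EVs, 3 rose and 5 fell (18.4% and 18.8%). With CrOE EVs, 10 of 10 markers were called lower, beside 37.0% of all genes tested. Lum was nearly lost there, at a mean of 0.00970 CPM against 3.82 CPM in untreated cells. The 10 epithelial markers together reached at most 4.06 CPM in any library, and Epcam was at 0 in all 12. Only 4 of them passed the filter on low counts. After CrOE EVs, 2 of these 4 were called higher and 1 lower (36.7% and 37.0% of all genes tested). Their log2 fold changes ran from -1.38 to 8.13, at these low levels. The 6 immune markers summed to at most 7.97 CPM in a library. The 5 endothelial markers were low, but their sum was 2.21 to 3.04 CPM in untreated libraries and 17.4 to 20.2 CPM after CrOE EVs, mostly from Vwf. The part of these marker shifts in the synthetase results was not tested. In bulk RNA, a change in the mix of cells and a change per cell cannot be told apart.

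The cytosolic synthetases were more abundant after every kind of EV, and far more so after CrOE EVs. The summed level of the mitochondrial enzymes other than Lars2 changed far less. It was 1.08-fold with CrOE EVs, where every library lay above all libraries of the other groups. Summed over the 20 cytosolic genes, the untreated libraries held 3212, 3410 and 3248 CPM. The shCon EV libraries held 4416, 4493 and 4679 CPM, and the shCr EV libraries 3739, 3921 and 4117 CPM. The CrOE EV libraries held 7352, 7678 and 7552 CPM, a mean 2.29-fold that of untreated cells. No 2 groups overlapped. Lars2 was left out of the mitochondrial sum because a single untreated library was far out of range, as described further down. The other 15 mitochondrial genes summed to 334 ± 6.62 CPM (SD, n = 3) in untreated cells, 323 ± 12 with shCon EVs, 321 ± 13.5 with shCr EVs and 361 ± 2.71 with CrOE EVs. Relative to untreated cells, these means were 0.966-fold, 0.960-fold and 1.08-fold. The cytosolic sum was 9.63 to 9.995 times the mitochondrial one in untreated libraries, 13.9 to 14.2 times with shCon EVs, 11.95 to 12.5 times with shCr EVs and 20.5 to 21.3 times with CrOE EVs. With Lars2 counted, all 16 mitochondrial genes held 605 to 635 CPM with shCon EVs, 524 to 778 with shCr EVs and 1697 to 2426 with CrOE EVs. The cytosolic sum was then 7.125 to 7.368, 5.04 to 7.137 and 3.03 to 4.45 times the mitochondrial one, lowest with CrOE EVs. In untreated libraries it was 6.035, 5.823 and 1.156 times, the last in the library with the outlying Lars2. These sums are a description without a test, and abundant genes weigh most in them. Iars2, the most abundant of the 15 mitochondrial genes, fell after CrOE EVs (log2 fold change -0.45). Of these 15, 8 were called higher and 3 lower after CrOE EVs, beside 36.7% and 37.0% of all genes tested.

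**Figure D1:**
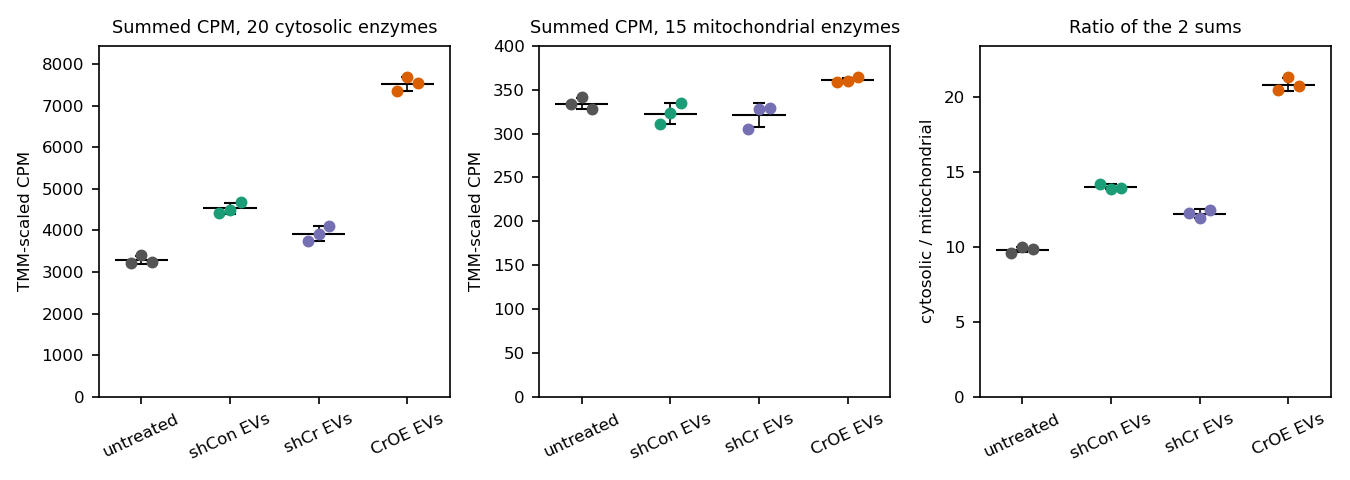
TMM-scaled CPM summed over the 20 cytosolic synthetases (left) and 15 mitochondrial synthetases without Lars2 (middle), and the ratio of these sums (right), in each of the 12 libraries. Points are libraries, the horizontal line is the group mean and the bars are SD (n = 3); the ratio runs from 9.63 to 9.995 in untreated libraries and from 20.5 to 21.3 after CrOE EVs.

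Against untreated cells, CrOE EVs raised 18 of the 20 cytosolic synthetases and lowered 0 (edgeR's quasi-likelihood test, p adjusted over all genes by Benjamini-Hochberg). Over all genes tested, 36.7% were called higher and 37.0% lower in this comparison. The median log2 fold change of the 20 was 1.18, beside 0.0078 for all genes tested, and 12 of them at least doubled (29.7% of all genes tested changed that much with a call, in either direction). In 19 of the 20 every CrOE EV library lay above every untreated one, as in 38.8% of all genes tested, and in 0 below, as in another 38.8%. Wars, the tryptophanyl enzyme, which is also known as an interferon-induced gene, moved most. Its untreated libraries were at 47.5, 56.2 and 48.6 CPM, the shCon EV libraries at 73.4, 72.4 and 78.2 CPM, the shCr EV libraries at 64.0, 71.2 and 77.4 CPM and the CrOE EV libraries at 341.5, 363 and 346 CPM. All treated libraries were above all untreated ones, and the CrOE EV libraries were far above the rest (log2 fold change 2.79, SE 0.082, adjusted p = 6.86e-12, edgeR).

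Vars, the valyl enzyme, was at 76.7, 88.7 and 80.6 CPM in untreated libraries and at 299.8, 296 and 308 CPM after CrOE EVs, a 3.67-fold rise. Iars, the isoleucyl enzyme, went from 163, 173 and 175.5 CPM to 533, 551 and 543 CPM, a 3.18-fold rise. A share of 14.5% of the 31-base stretches in Iars transcripts also occurs in Gm4849, so part of its count is uncertain. Eprs, the glutamyl-prolyl enzyme, was at 266, 243 and 267 CPM in untreated libraries and at 787, 828 and 785 CPM after CrOE EVs. The rise came to 1.63 on the log2 scale (SE 0.052, adjusted p = 1.62e-11, edgeR). Next came Nars for asparagine, with a log2 fold change of 1.60, Lars for leucine with 1.58 and Gars for glycine with 1.41. In each of these genes the CrOE EV libraries lay above every library of the other groups. Tars for threonine rose by a log2 fold change of 1.33, Yars for tyrosine by 1.22, Sars for serine by 1.20 and Cars for cysteine by 1.11. The subunits of phenylalanyl-tRNA synthetase both rose, Farsb by 1.17 and Farsa by 0.75. In Farsb, 11.3% of the exon bases lie under an exon of Sgpp2 on the opposite strand, and how counting used the strand is not given in the sources used here.

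A smaller set of cytosolic enzymes responded little. Kars for lysine and Qars for glutamine rose by log2 fold changes of 0.17 and 0.26. Hars for histidine was at 74.8, 73.8 and 75.3 CPM in untreated libraries and at 70.4, 75.7 and 72.2 CPM after CrOE EVs, so the groups overlapped (log2 fold change -0.04, adjusted p = 0.502). Dars for aspartate was at 66.1, 59.4 and 63.4 CPM and then 70.6, 78.7 and 72.1 CPM, without overlap but also without a call (log2 fold change 0.23, adjusted p = 0.057). Fitting these 2 groups alone made Dars a call (adjusted p = 0.00713), as did the replicate number as a block (adjusted p = 0.0496). Mars for methionine was the one cytosolic gene that peaked with another EV type. It was at 75.6, 78.4 and 77.9 CPM in untreated libraries, 107.5, 114 and 118 CPM after shCon EVs, 94.5, 100.3 and 104 CPM after shCr EVs and 89.2, 94.9 and 96.1 CPM after CrOE EVs. Mars was thus lower after CrOE EVs than after shCon EVs (log2 fold change -0.28, SE 0.055, adjusted p = 0.000504, edgeR), the single cytosolic fall in that comparison. Exons of Mars lie opposite those of Ddit3 over 2.29% of their bases.

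**Figure D2:**
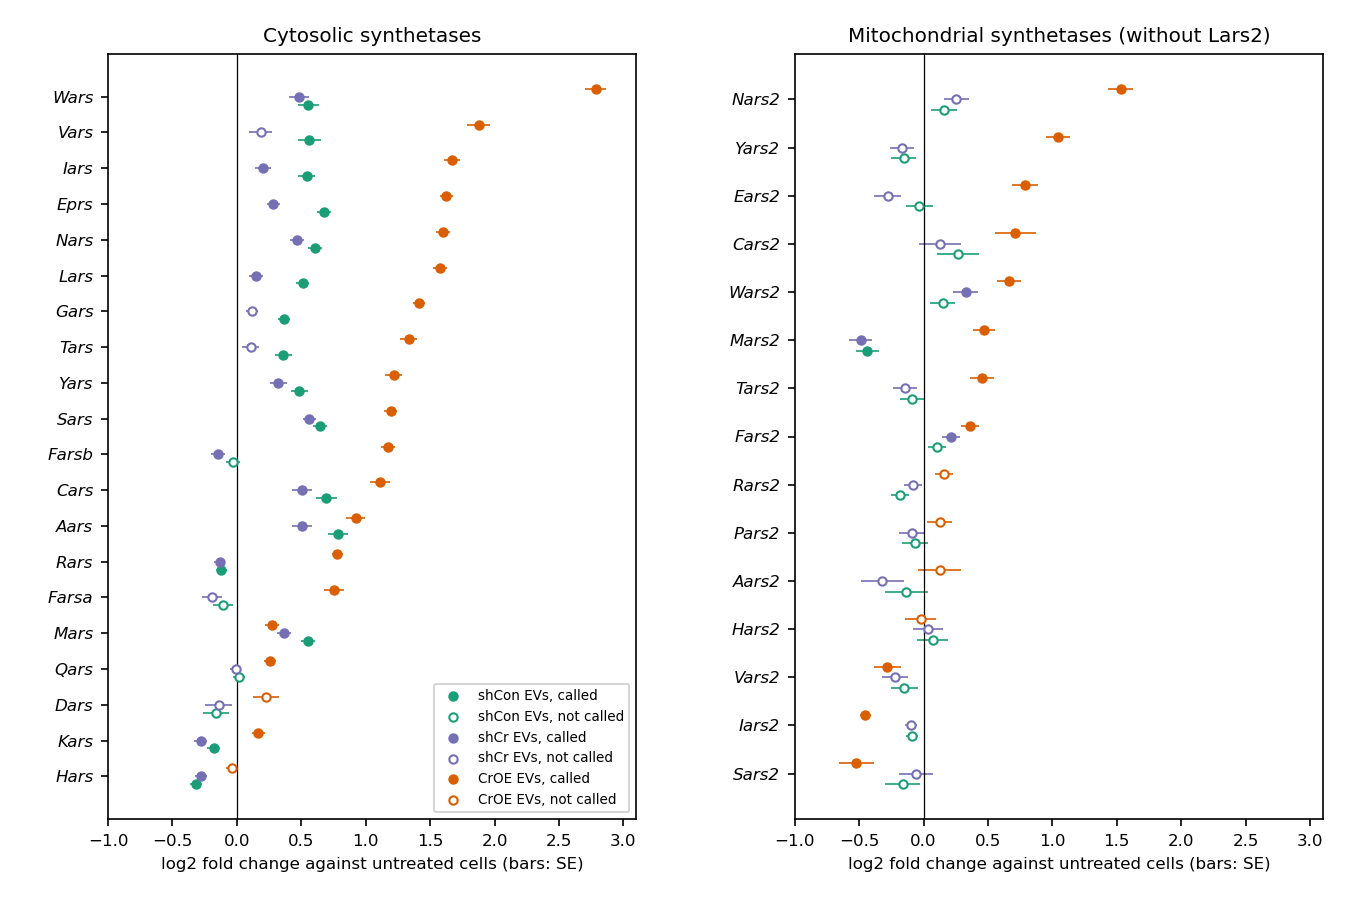
Log2 fold change of each cytosolic (left) and mitochondrial synthetase (right, without Lars2) against untreated cells after shCon, shCr and CrOE EVs; bars are SE, and filled points passed an adjusted p under 0.05 by edgeR. Genes are sorted by the CrOE EV value, which runs from -0.04 for Hars to 2.79 for Wars and from -0.52 for Sars2 to 1.53 for Nars2.

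After shCon EVs, 13 cytosolic synthetases were called higher and 3 lower than in untreated cells, where 18.0% of all genes tested were called higher and 20.2% lower. Their median log2 fold change was 0.50, beside 0.0069 over all genes, and 0 of them reached a doubling, where 6.04% of all genes tested changed that much. The libraries did not overlap in 13 that were higher (26.6% of all genes tested) and 4 that were lower (27.7%). The untreated libraries are shared by the 3 comparisons with EVs, so these are not independent of each other. Aars, the alanyl enzyme, rose most. It was at 525, 616.5 and 541 CPM in untreated libraries, 929, 966 and 1005 CPM after shCon EVs, 716, 815 and 858 CPM after shCr EVs and 1028, 1092 and 1069 CPM after CrOE EVs. Aars therefore stood close to its CrOE EV level already with shCon EVs, and the difference between these groups was no call (log2 fold change 0.14, SE 0.075, adjusted p = 0.117, edgeR), except when these 2 groups were fitted alone (adjusted p = 0.0223). In Aars, 13.8% of the 31-base stretches occur in Exosc6, a neighbour with shared exons. Cars rose by 0.69, Eprs by 0.68 and Sars by 0.65 on the log2 scale after shCon EVs. Sars reached 537, 534 and 562 CPM from 342, 369 and 333 CPM.

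The 3 that fell after shCon EVs were Hars, Kars and Rars, the arginyl enzyme, and the falls were small. Hars went to 58.0, 59.7 and 62.2 CPM, below every untreated library (log2 fold change -0.32, SE 0.048, adjusted p = 0.000235, edgeR). Kars fell by 0.18 on the log2 scale, which lost its call when untreated replicate 3 (adjusted p = 0.051) or shCon EV replicate 1 (adjusted p = 0.0642) was left out. Rars fell by 0.12 (adjusted p = 0.0445), a call that was lost when any 1 of the 6 libraries was left out (adjusted p = 0.0643 to 0.162), under the replicate block (adjusted p = 0.0556) and with no filter on low counts (adjusted p = 0.17). In Hars, 9.8% of exon bases lie opposite an exon of Hars2, its mitochondrial counterpart and neighbour.

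After shCr EVs the pattern was the same in kind and weaker. Here 10 cytosolic synthetases were called higher and 4 lower (18.4% and 18.8% of all genes tested), with a median log2 fold change of 0.17 beside 0.020 over all genes, and 0 of them doubled (6.28% of all genes). The libraries did not overlap in 10 that were higher (20.8% of all genes tested) and 5 that were lower (21.1%). Sars rose most (log2 fold change 0.56, SE 0.051, adjusted p = 2.47e-06, edgeR), followed by Aars (0.51), Cars (0.50) and Wars (0.48). Gars, Tars and Vars, called after shCon EVs, were no calls here (adjusted p = 0.0568, 0.223 and 0.126). Vars was a call without shCr EV replicate 1 (adjusted p = 0.00116), the lowest library of its group at 77.8 CPM, beside 99.4 and 102 CPM. The small rises of Iars (0.20) and Lars (0.15) and the falls of Farsb (-0.15) and Rars (-0.13) were lost when these 2 groups were fitted alone (adjusted p = 0.111, 0.2, 0.113 and 0.121). The falls of Hars and Kars, both -0.28, were called under every alternative short of the 2-fold limit.

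The direct comparison of shCr with shCon EVs sets EVs of CRIPTO knockdown donors beside those of control donors. Any other difference between the EVs of these donors cannot be told apart from the knockdown. Of the 20 cytosolic synthetases, 7 were called lower with shCr EVs and 0 higher, where 3.51% of all genes tested were called lower and 5.22% higher (8.73% in all). None changed by 2-fold with a call (0 of 20, and 0.756% of all genes tested). The 7 were Eprs, Vars, Lars, Iars, Aars, Gars and Tars. In 18 of the 20 the log2 fold change was below 0, with a median of -0.15, and in 13 no shCr EV library reached any shCon EV library (12.5% of all genes tested), the opposite holding for 0 (15.5%). Eprs fell most, from 413, 412 and 416 CPM after shCon EVs to 308, 309 and 328 CPM after shCr EVs, a log2 fold change of -0.39 (SE 0.051, adjusted p = 0.000466, edgeR). Lars went from 189, 193 and 196.5 CPM to 140, 152 and 158 CPM (log2 fold change -0.36), back to near its untreated level of 133 to 141 CPM. Sars and Wars, by contrast, were no calls (log2 fold changes -0.08 and -0.07). The count was 4 of 20 without shCon EV replicate 1, 2 or 3, and also when these 2 groups were fitted alone. In each of those fits the calls of Aars, Tars and Vars were lost (fitted alone, adjusted p = 0.0884, 0.131 and 0.0915), and Eprs, Gars, Iars and Lars were called under every alternative short of the 2-fold limit.

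CrOE EVs were then compared with the other EVs, none of which came from a separate control for overexpression. Against shCon EVs, 18 cytosolic synthetases were called higher and 1, Mars, lower (36.5% and 36.1% of all genes tested, 72.6% in all), with a median log2 fold change of 0.88. At least a 2-fold change was called for 6 (27.2% of all genes), and the libraries did not overlap in 19 that were higher (40.7%) and 1 that was lower (39.8%). Against shCr EVs, 19 were called higher and 0 lower (36.9% and 37.0% of all genes tested, 73.9% in all), with a median of 0.93. At least a 2-fold change was called for 9 (29.6% of all genes), and the libraries did not overlap in 19 that were higher (37.1%) and 0 that were lower (36.9%). Mars was no call (adjusted p = 0.136), except without shCr EV replicate 1 (adjusted p = 0.0368). These comparisons share the CrOE EV libraries. Wars led both, with log2 fold changes of 2.23 and 2.30. Enzymes that neither shCon nor shCr EVs had raised were among those that rose here: Farsb by 1.20 and 1.32, Farsa by 0.86 and 0.94 and Rars by 0.90 and 0.91.

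The cytosolic enzymes can be split by ATF4. Of 12 that are widely reported as ATF4 targets (Aars, Cars, Eprs, Gars, Iars, Lars, Mars, Nars, Sars, Tars, Wars and Yars), 12 rose with shCon EVs, 10 with shCr EVs and 12 with CrOE EVs, and 0 fell in each. Their median log2 fold changes were 0.55, 0.34 and 1.37. Of the other 8 (Dars, Farsa, Farsb, Hars, Kars, Qars, Rars and Vars), 1 rose and 3 fell after shCon EVs, 0 rose and 4 fell after shCr EVs, and 6 rose and 0 fell after CrOE EVs. Their medians were -0.12, -0.14 and 0.50. After shCon EVs every listed gene and, of the others, Vars alone rose; after shCr EVs all risers were listed genes, and Gars and Tars were the listed genes without a call. After CrOE EVs most of both sets rose. Over all genes tested, 18.0% were called higher and 20.2% lower after shCon EVs. The shares were 18.4% and 18.8% after shCr EVs, and 36.7% and 37.0% after CrOE EVs. The list was set with earlier results of these data known, and the difference between the sets was not tested.

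Promoter letters were read for the 26 members with a window in the RefSeq table (build GRCm38.p6), each from 250 bases before to 50 bases after a gene start. The core of the C/EBP-ATF response element, TGATGNAA, was searched on both strands. It occurred in 5 of 12 cytosolic members with a window and in 0 of 14 mitochondrial members, beside 1219 of all 27025 genes with a window. Counted by window, it was in 3.97% of all 32851. The 5, all of the members with a match, are shown with the matched letters in capitals (TTGCATCA and TTTCATCA are matches on the reverse strand). Their windows are chr8:111033592-111033891 (plus strand) for Aars, chr6:55037751-55038050 (plus) for Gars, chr13:49681880-49682179 (plus) for Iars, chr15:11399609-11399908 (minus) for Tars and chr4:129189653-129189952 (plus) for Yars.
Aars: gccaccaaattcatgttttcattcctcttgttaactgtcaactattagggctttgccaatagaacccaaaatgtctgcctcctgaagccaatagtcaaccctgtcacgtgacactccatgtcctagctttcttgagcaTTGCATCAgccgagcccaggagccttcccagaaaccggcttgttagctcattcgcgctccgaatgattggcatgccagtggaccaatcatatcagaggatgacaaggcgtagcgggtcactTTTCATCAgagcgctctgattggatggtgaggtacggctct
Gars: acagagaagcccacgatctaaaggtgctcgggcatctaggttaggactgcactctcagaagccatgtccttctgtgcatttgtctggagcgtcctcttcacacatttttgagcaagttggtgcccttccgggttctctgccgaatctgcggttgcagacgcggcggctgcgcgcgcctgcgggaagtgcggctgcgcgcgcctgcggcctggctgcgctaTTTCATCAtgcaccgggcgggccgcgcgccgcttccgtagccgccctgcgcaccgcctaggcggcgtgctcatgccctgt
Iars: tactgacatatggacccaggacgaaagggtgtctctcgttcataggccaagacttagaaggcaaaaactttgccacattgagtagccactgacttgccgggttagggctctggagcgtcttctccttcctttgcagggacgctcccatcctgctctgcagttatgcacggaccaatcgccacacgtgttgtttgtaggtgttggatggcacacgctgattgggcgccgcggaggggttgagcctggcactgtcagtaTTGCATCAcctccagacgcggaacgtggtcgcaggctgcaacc
Tars: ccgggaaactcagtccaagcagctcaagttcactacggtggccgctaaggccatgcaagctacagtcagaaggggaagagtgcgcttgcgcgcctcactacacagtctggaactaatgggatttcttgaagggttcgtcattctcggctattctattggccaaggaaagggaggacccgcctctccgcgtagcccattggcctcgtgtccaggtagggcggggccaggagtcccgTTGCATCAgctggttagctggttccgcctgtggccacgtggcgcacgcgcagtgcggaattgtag
Yars: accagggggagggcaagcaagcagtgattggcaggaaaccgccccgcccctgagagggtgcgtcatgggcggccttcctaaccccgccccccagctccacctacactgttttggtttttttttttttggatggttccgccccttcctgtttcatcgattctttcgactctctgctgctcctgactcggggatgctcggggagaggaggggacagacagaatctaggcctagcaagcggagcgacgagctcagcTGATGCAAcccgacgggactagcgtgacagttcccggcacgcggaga

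Aars held 2 matches, beginning 112 bases before and 10 bases after the start, and the other 4 held 1 each, beginning 30 bases before the start in Gars, 15 before in Tars, 8 after in Iars and 4 after in Yars. Of these 5 genes, shCon EVs raised 5, shCr EVs 3 and CrOE EVs 5, the last with log2 fold changes of 0.92 to 1.67. Another 7 cytosolic members had a window without the letters (Dars, Eprs, Farsa, Farsb, Kars, Qars and Sars). Among these, 2 rose and 1 fell after shCon EVs, 2 rose and 2 fell after shCr EVs, and CrOE EVs raised 6. Their values after CrOE EVs spanned 0.17 to 1.63. Cars, Hars, Lars, Mars, Nars, Rars, Vars and Wars had no window and are in neither group. Over all genes tested, 18.0% were called higher and 20.2% lower after shCon EVs. The shares were 18.4% and 18.8% after shCr EVs, and 36.7% and 37.0% after CrOE EVs. Eprs and Sars, which rose after all 3 EV types, were among those without a match. For comparison, 7 of 25 other genes of the ATF4 programme with windows held the letters, Asns, Trib3 and Chac1 among them. A second motif, an NRF1-type palindrome, known from promoters of nuclear genes for mitochondrial proteins, was also searched on both strands. It was found in 2 of 14 mitochondrial members (Iars2 and Mars2) and 3 of 12 cytosolic ones (Farsb, Kars and Tars). Over all genes with a window it was in 1891 of 27025 (6.23% of all windows). In Tars its matches do not overlap those of TGATGNAA. Matches describe letters only; no binding was measured.

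Many cytosolic synthetases sit in the multisynthetase complex, an assembly of 8 enzymes held together by scaffold proteins. Of the 8 (Eprs, Iars, Lars, Qars, Mars, Kars, Rars and Dars), 7 rose after CrOE EVs with a median log2 fold change of 0.53, and 4 rose and 2 fell after shCon EVs (median 0.26). Of the 12 enzymes outside the complex, 11 rose after CrOE EVs (median 1.21), and 9 rose and 1 fell after shCon EVs (median 0.52). Over all genes tested, 36.7% were called higher and 37.0% lower after CrOE EVs, and 18.0% and 20.2% after shCon EVs. Within the complex, members diverged: after CrOE EVs Eprs, Iars and Lars rose by 1.58 to 1.67 and Dars, Kars, Mars and Qars had values of 0.17 to 0.27. The scaffold genes rose after CrOE EVs, Eef1e1 by 1.02, Aimp2 by 1.00 and Aimp1 by 0.44. After shCon EVs Aimp2 fell (log2 fold change -0.40, adjusted p = 0.00124, edgeR), and Aimp1 and Eef1e1 were no calls.

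Few mitochondrial synthetases were called after shCon or shCr EVs. Most of them had fewer counts and a larger SE than most cytosolic ones, which makes small changes harder to call. The part of this in the counts of calls was not tested. After shCon EVs, 0 of 16 were called higher and 1 lower, with a median log2 fold change of -0.089. At an unadjusted p under 0.05 there were 3. The shCr EVs gave 2 higher and 1 lower (median -0.092). These shares lie below those of all genes tested given above for the same comparisons. After CrOE EVs, 8 were called higher, 3 lower and 5 were no calls, with a median of 0.41 (0.36 without Lars2). Called in either direction were thus 11 of 16, near the 73.7% of all genes tested, of which 36.7% were higher and 37.0% lower. Between shCr and shCon EVs 0 of 16 were called in either direction by edgeR and by DESeq2, and 1 had an unadjusted p under 0.05. CrOE EVs against shCon EVs gave 10 higher, 2 lower and 4 without a call, with a median of 0.39, and against shCr EVs the counts were again 10, 2 and 4. Over all genes tested, 72.6% and 73.9% were called in these comparisons. Iars2 and Sars2 were the 2 lower ones in both, and against shCon EVs the call of Sars2 was lost without shCon EV replicate 2 or 3 or CrOE EV replicate 1 or 2 (adjusted p = 0.0586 to 0.123).

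Nars2, the asparaginyl enzyme and one of the least abundant members, rose most after CrOE EVs in the fit to all libraries. Lars2, given separately with its outlying library, exceeded it without that library. Nars2 was at 3.62, 3.81 and 3.79 CPM in untreated libraries, 4.19, 4.28 and 4.07 CPM after shCon EVs, 4.51, 4.52 and 4.37 CPM after shCr EVs and 10.2, 12.1 and 10.02 CPM after CrOE EVs, a log2 fold change of 1.53 (SE 0.095, adjusted p = 9.33e-09, edgeR). Yars2 for tyrosine doubled, from 13.0, 12.5 and 15.3 CPM to 27.8, 29.6 and 26.8 CPM after CrOE EVs, and was no call with the other EVs in the fit to all libraries. Ears2, which charges glutamate and, with the amidotransferase that contains Gatb and Gatc, supplies mitochondrial glutaminyl-tRNA, rose by a log2 fold change of 0.79. Cars2 rose by 0.71, Wars2 by 0.66, Tars2 by 0.46 and Fars2 by 0.36. In each of these genes the CrOE EV libraries lay above all untreated libraries.

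Mars2, the methionyl enzyme, moved in both directions. It was at 6.63, 6.97 and 7.87 CPM in untreated libraries, 5.40, 5.11 and 5.37 CPM after shCon EVs, 5.29, 5.16 and 4.90 CPM after shCr EVs and 10.4, 9.51 and 9.83 CPM after CrOE EVs. The 4 groups fell into 3 levels without overlap, shCon and shCr EVs sharing the lowest. Both falls were calls, with log2 fold changes of -0.44 (adjusted p = 0.00217) for shCon EVs and -0.49 (adjusted p = 0.000892) for shCr EVs. So was the rise with CrOE EVs, at 0.47 (adjusted p = 0.000254, edgeR).

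The 3 mitochondrial enzymes called lower after CrOE EVs were Sars2, Iars2 and Vars2. Sars2 for serine went from 12.3, 14.1 and 13.9 CPM to 8.94, 8.52 and 10.6 CPM, a log2 fold change of -0.52 (SE 0.13, adjusted p = 0.00344, edgeR). Iars2 for isoleucine went from 126, 123 and 123 CPM to 89.5, 94.1 and 88.6 CPM (log2 fold change -0.45). Exons of other genes lie opposite 32.2% of the exon bases of Iars2, most of them exons of Rab3gap2. Vars2 for valine fell by 0.28, a call that was lost without untreated replicate 2 (adjusted p = 0.104) or CrOE EV replicate 1 (0.0838) or 3 (0.0527). For these 3 amino acids, serine, isoleucine and valine, the cytosolic enzyme rose while the mitochondrial one fell. Hars2, Pars2, Aars2 and Rars2 were no calls after CrOE EVs (log2 fold changes -0.02 to 0.16). The small rise of Fars2 after shCr EVs (0.21) was lost without untreated replicate 2 or 3 or shCr EV replicate 1 or 2 (adjusted p = 0.0508 to 0.114), and that of Wars2 (0.33) without untreated replicate 2 or 3 (adjusted p = 0.0642 and 0.0543).

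Lars2, the mitochondrial leucyl enzyme, needs separate treatment. It was at 199, 244 and 2481 CPM in the untreated libraries, so that replicate 3 was 11.2-fold above the mean of the other two. After shCon EVs it was at 294, 308 and 300.4 CPM, after shCr EVs at 219, 449.9 and 368 CPM and after CrOE EVs at 2067, 1511 and 1333 CPM. The untreated outlier thus exceeded every CrOE EV library. With all libraries, the log2 fold change against untreated cells was 0.75 (SE 0.71, adjusted p = 0.358) after CrOE EVs, and without untreated replicate 3 it was 2.88 (adjusted p = 2.35e-06, edgeR). Against shCon EVs, where no such library occurs, it was 2.44 (adjusted p = 0.01), and against shCr EVs 2.24 (adjusted p = 0.015). Lars2 made up 37.4% to 88.3% of the summed mitochondrial CPM of a library, and the sum over all 16 genes was 532, 586 and 2809 CPM in untreated libraries. What the Lars2 count holds is uncertain: rows such as Gm15662 were high in the same libraries, with values given among the other observations, and whether reads of another origin enter the count was not tested. Of its 31-base stretches, 0.923% occur in other annotated transcripts, which says nothing of sequence outside that annotation.

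**Figure D3:**
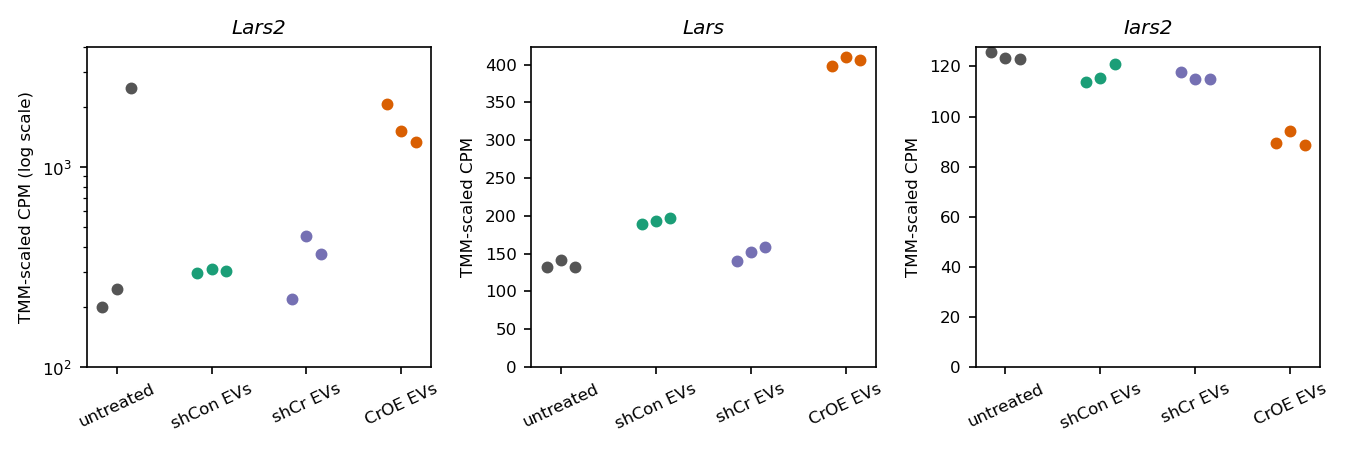
TMM-scaled CPM of Lars2 (log axis), Lars and Iars2 in each of the 12 libraries; points are libraries. Untreated replicate 3 has 2481 CPM of Lars2 beside 199 and 244 in its replicates, whereas Lars (133 to 141) and Iars2 (123 to 126) are close together in the same 3 libraries.

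Enzymes for the same amino acid were set side by side as the log2 ratio of cytosolic over mitochondrial CPM in each library. There were 16 such pairs without leucine, with Eprs paired to both Ears2 and Pars2 and both cytosolic phenylalanyl subunits paired to Fars2, so that pairs share genes. Against untreated cells, the ratio was higher without overlap in 11 pairs and lower in 1 after shCon EVs, higher in 10 and lower in 2 after shCr EVs, and higher in 12 and lower in 0 after CrOE EVs. The median shifts of the log2 ratio were 0.54, 0.33 and 0.81. Among single genes tested, libraries did not overlap in 26.6% (higher) and 27.7% (lower) after shCon EVs. These shares were 20.8% and 21.1% after shCr EVs, and 38.8% each after CrOE EVs. The share over other pairs of genes was not computed, so the pair counts have no background of their own. From shCon to shCr EVs the ratio was lower without overlap in 7 pairs and higher in 0. From shCon to CrOE EVs it was higher in 10 pairs and lower in 3, namely methionine (-1.17), tyrosine (-0.46) and asparagine (-0.36). From shCr to CrOE EVs it was higher in 9 and lower in 2, methionine (-1.04) and tyrosine (-0.31). The leucine pair, left out for its outlying untreated library, was also lower without overlap in both comparisons (-1.35 and -0.85). Neither comparison uses that untreated library. The widest shifts after CrOE EVs were those of valine (2.16), isoleucine (2.12), tryptophan (2.12) and serine (1.72). Asparagine, tyrosine, methionine and histidine pairs overlapped with untreated cells, at 0.09, 0.18, -0.20 and -0.01. In the asparagine and tyrosine pairs both enzymes rose, and in the histidine pair neither was a call.

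**Figure D4:**
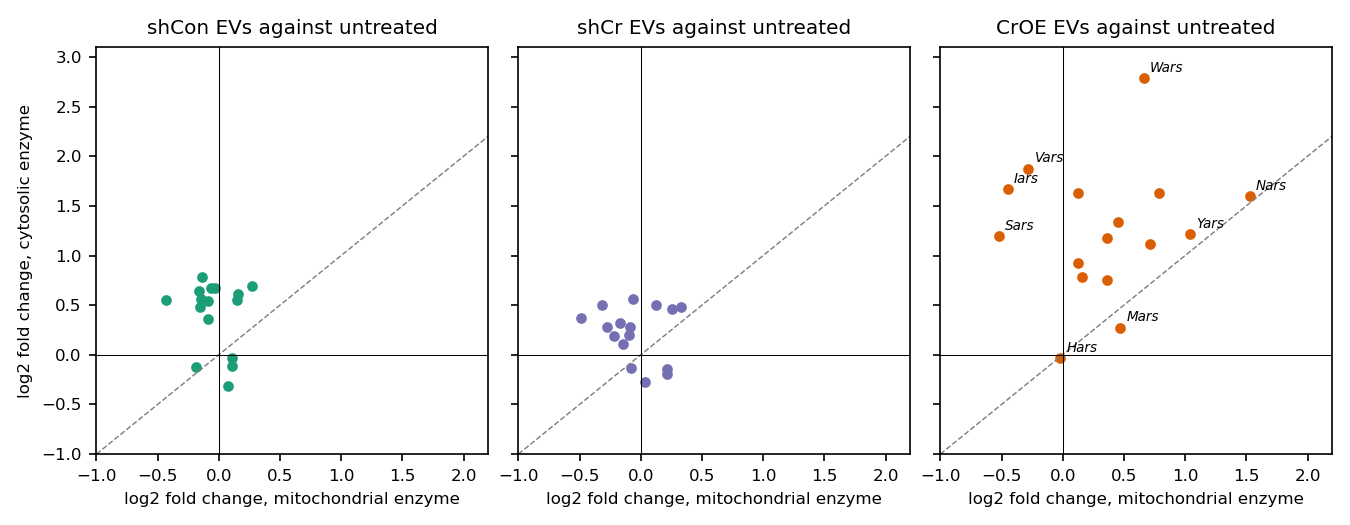
Log2 fold change against untreated cells of the cytosolic (vertical axis) and mitochondrial enzyme (horizontal axis) of the same amino acid, for 16 pairs without leucine, after shCon, shCr and CrOE EVs. The dashed line marks equal change; after CrOE EVs the valine, isoleucine and serine pairs lie above it with the mitochondrial enzyme below 0, and the asparagine pair lies close to it at 1.53 and 1.60.

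Counts for related genes are to be read against the shares of all genes tested that were called higher and lower, which were 18.0% and 20.2% after shCon EVs, 18.4% and 18.8% after shCr EVs, and 36.7% and 37.0% after CrOE EVs. In the ATF4 programme outside the synthetases, 26 of 27 listed genes were tested, and 22 rose and 1 fell after shCon EVs, 19 rose and 2 fell after shCr EVs, and 24 rose and 0 fell after CrOE EVs. Their median log2 fold changes were 0.65, 0.60 and 1.66. Atf4 itself was at 279 ± 21.8 CPM (SD, n = 3) in untreated cells, 488 ± 14.2 with shCon EVs, 482.5 ± 20 with shCr EVs and 791 ± 14.1 with CrOE EVs. Ddit3, which encodes the stress factor CHOP, was at 30.7 ± 3.34, 70.6 ± 3.33, 67.8 ± 5.97 and 356 ± 13.8 CPM in the same order. Ppp1r15a, a phosphatase subunit that reverses the translation block of the stress response, rose most after CrOE EVs (log2 fold change 4.08), ahead of the pseudokinase gene Trib3 (3.65). Chac1, a glutathione-degrading enzyme, rose by 2.60. Asns, asparagine synthetase, followed the order of the cytosolic synthetases, at 102 ± 5.09 CPM untreated, 168 ± 8.22 after shCr EVs, 212.5 ± 4.46 after shCon EVs and 325 ± 2.78 after CrOE EVs. Between shCr and shCon EVs, 9 genes of this list were lower and 1 higher, where 3.51% of all genes tested were called lower and 5.22% higher. Asns and Trib3 were among those lower (log2 fold changes -0.34 and -0.71), whereas Atf4, Ddit3 and Chac1 were no calls (-0.02, -0.06 and -0.06).

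Of 12 amino acid transporters, 8 rose and 1 fell after shCon EVs, 8 rose and 1 fell after shCr EVs, and 9 rose and 2 fell after CrOE EVs (medians 0.86, 0.64 and 1.87). Slc3a2, the shared heavy chain of several transporters, rose by 3.93 after CrOE EVs and Slc6a9, a glycine transporter, by 3.67. Slc1a5, a glutamine transporter, rose after shCon and shCr EVs (0.75 and 0.61) and fell after CrOE EVs (-0.29), where Slc7a6 also fell (-0.24). Cytosolic initiation and elongation factors followed another course: 2 of 19 rose and 7 fell after shCon EVs, 1 rose and 7 fell after shCr EVs, and 16 rose after CrOE EVs (medians -0.13, -0.12 and 0.40). Eif5 and Eif2b3 rose most, by 1.42 and 1.38.

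For the mitochondrial side, 15 translation factors gave 2 higher and 2 lower after shCon EVs, 1 higher and 4 lower after shCr EVs and 7 higher and 2 lower after CrOE EVs (medians -0.096, -0.081 and 0.20). Gatc and Gatb, parts of one amidotransferase, moved apart after CrOE EVs (1.36 and -0.50), and Tsfm, an elongation factor, rose by 0.64 while Gfm2 fell by 0.20. The call of Gfm2 was lost without untreated replicate 2 (adjusted p = 0.0676) or CrOE EV replicate 1 (adjusted p = 0.0553). Of 76 mitochondrial ribosomal protein genes tested, 2 rose and 24 fell after shCon EVs, 3 rose and 7 fell after shCr EVs, and 31 rose and 21 fell after CrOE EVs (medians -0.15, -0.044 and 0.062). Mrps18b and Mrps10 rose most after CrOE EVs (1.12 and 0.96), and Mrps6 and Mrpl23 fell most (-1.15 and -1.10). Of 9 regulators of mitochondrial biogenesis, 5 rose and 2 fell after CrOE EVs, led by Ppargc1a (1.00) and Nrf1 (0.94). Of 6 proofreading and peptidyl-tRNA hydrolase genes, 2 rose and 1 fell after CrOE EVs, Ptrh2 rising by 0.77 and Dtd1, a deacylase of mischarged tRNA, falling (-0.53). The median of the biogenesis regulators was 0.46 after CrOE EVs, beside 0.36 for the mitochondrial synthetases without Lars2.

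**Figure D5:**
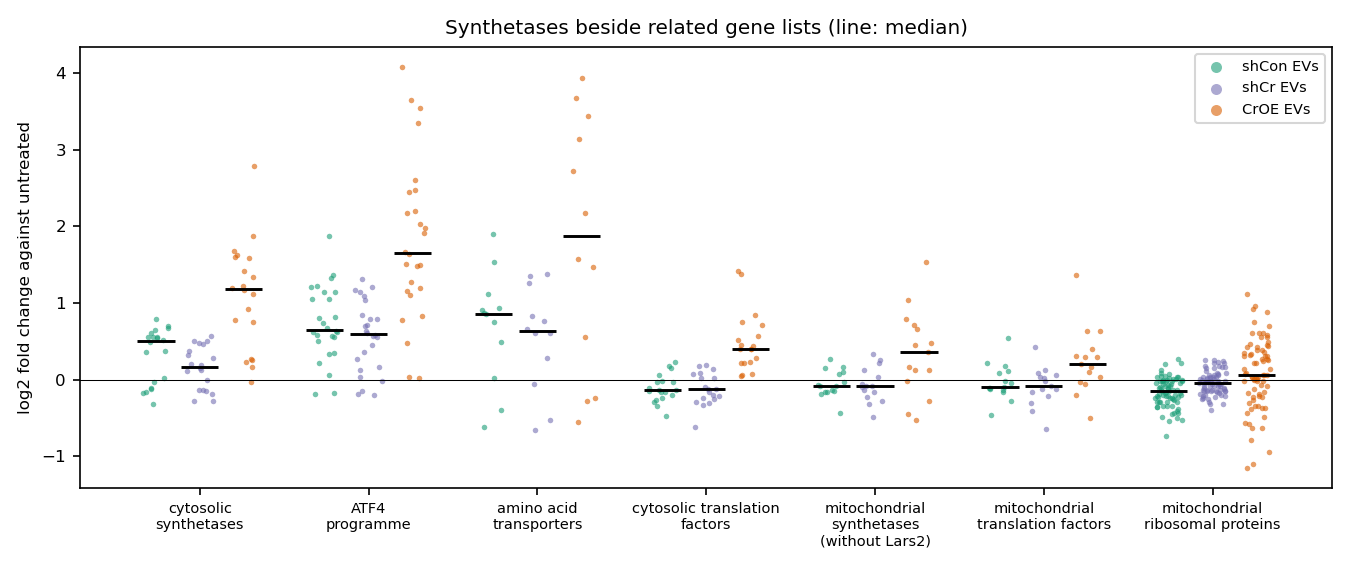
Log2 fold change against untreated cells of the genes tested in 7 lists after shCon, shCr and CrOE EVs; points are genes and black lines are medians. Medians after CrOE EVs are 1.18 for cytosolic synthetases, 1.66 for the ATF4 programme, 1.87 for amino acid transporters and 0.062 for mitochondrial ribosomal proteins.

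Levels were compared between genes only per kilobase of exon, with lengths from GENCODE M21. In untreated cells the cytosolic genes ranged from 17.7 CPM per kilobase (Wars) to 109 (Kars), and the mitochondrial ones, Lars2 aside, from 0.634 (Mars2) to 18.6 (Iars2). Apart from Lars2, Iars2 alone reached the cytosolic range, just above Wars. Gars (101), Aars (97.6) and Sars (95.5) followed Kars in the order of means. After CrOE EVs the order changed: Gars stood at 270 CPM per kilobase, Nars at 222 and Sars at 219, Kars at 122 and Wars, from the bottom of the cytosolic order, at 122 as well.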

How the data were processed

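Values come from 1 deposited table in which the authors give estimated counts by symbol, with a column for each library and no scaling; 39.8% of values are not whole numbers. Per the submitters' processing notes, featureCounts and build mm39 were used; the aligner, the annotation and the strand setting are not given in the sources used here. Libraries were directional and poly(A)-selected, per the labels' protocols. Values were rounded to whole numbers. The 27 rows whose symbol had become a date hold no member.

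Genes were kept by filterByExpr (14279), scaled by TMM and tested with edgeR 4.0.16 (R 4.3.3, quasi-likelihood F-test) on all 12 libraries with a mean per group (8 residual degrees of freedom). A call is a Benjamini-Hochberg adjusted p under 0.05 over all genes tested. CPM is TMM-scaled; log2 CPM for ratios used a prior count of 2. The scripts were tested on simulated data.

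Members may all be named. From other lists, 8 set genes and the 2 largest rises and falls after CrOE EVs with no overlap and a mean log2 CPM of 1 or more are named; genes added to these are Lum, Epcam, Vwf and those that overlap or resemble a member, named after their values were seen. A gene that this rule would name is not reported here. Members and lists were chosen with earlier results of these data known. Exon lengths, overlaps and shared 31-base stretches come from GENCODE M21 (GRCm38), which differs from the authors' build, so no gene coordinates from it are given. Alternatives were median-of-ratios factors, DESeq2 1.42.0, other filters, a replicate block, each library left out, 2-group models and a fold change of at least 2.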

Additional observations from a re-analysis of the deposited data

Results flagged for a closer look

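The following members were called in opposite directions against untreated cells by different EV types, and the difference itself was a call by edgeR's test between the EV groups. Rars fell slightly after shCon and shCr EVs and rose after CrOE EVs, with log2 differences of 0.90 between CrOE and shCon EVs and 0.91 between CrOE and shCr EVs. Mars2 did the same, with differences of 0.91 and 0.96. Kars did so with smaller differences of 0.35 and 0.45. Farsb was called lower after shCr EVs and higher after CrOE EVs, with a difference of 1.32. The falls of Rars and Farsb, and that of Kars after shCon EVs, were lost under some alternatives, as given above.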

How the results depend on the processing

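Of 216 combinations of a member and a comparison, 181 stayed on the same side of the threshold under every alternative fit. No called member reversed. Demanding at least a 2-fold change left 863, 897, 4245, 108, 3884 and 4223 of all genes in shCon, shCr and CrOE EVs against untreated, shCr against shCon, CrOE against shCon and CrOE against shCr EVs. It left 0, 0, 12, 0, 6 and 9 cytosolic and 0, 0, 2, 0, 3 and 4 mitochondrial synthetases. Mitochondrial calls after shCon EVs went from 1 to 2 with no filter and with at least 10 counts in every library, and ranged from 1 to 2 with a library left out (2 without untreated replicate 1 or 2, as Lars2 was then called). After shCr EVs they went from 3 to 1 with these groups fitted alone, and from 1 (without untreated replicate 3) to 5 (without shCr EV replicate 3) with a library left out. Between shCr and shCon EVs, fitting these groups alone gave 641 calls over all genes against 1247, and 4 cytosolic calls against 7. Leaving out a library gave 632 to 1396 and 4 to 8; the low values, 688, 632 and 666 over all genes, came without shCon EV replicate 1, 2 and 3. The cause was not tested. Cytosolic counts after CrOE EVs stayed at 18 against untreated cells with any library left out. The replicate block moved no count by over 1.5 times (8 cytosolic calls against 7 between shCr and shCon EVs). Same-numbered libraries of different groups correlated at -0.204 to 0.315 in their deviations, 4 of 18 pairs over 0.1, and 1 of 12 libraries was closest to its own number, so the numbers were not taken as pairs. Changes as small as the fall of Rars are at the limit of what this depth and spread allow to be called. Leaving out Lars2, chosen after seeing the data, moved no count of calls by over 1.5 times. It did move the class sums. After CrOE EVs the ratio of cytosolic to mitochondrial CPM was 3.03 to 4.45 with Lars2 and 20.5 to 21.3 without it.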

Other observations

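The genes whose log2 CPM followed that of Lars2 most closely over the 12 libraries, among 12295 genes with at least 10 counts in every library, were Gm12896 and Gm12895 (Pearson's r = 0.996 each), RP23-402O17.1 (0.996) and Gm15662 (0.971). They were looked up after the Lars2 values were seen, the libraries share groups and depth, and r is a description. Gm12896, Gm12895 and RP23-402O17.1 hold identical values and so count as 1 profile. Gm15662 was at 75.8, 90.2 and 1073 CPM in the untreated libraries and at 2168, 1773 and 1600.3 CPM after CrOE EVs. Untreated replicate 3 thus stood out in these genes as it did in Lars2, and Lars2 shared few 31-base stretches with annotated transcripts. What links these rows was not tested.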
